A study of Mus musculus with 24 samples.

Results

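The TGF-β genes described here are 3 TGF-β ligands (Tgfb1, Tgfb2 and Tgfb3), the activin subunit Inhba, the receptors Tgfbr1 and Tgfbr2, the signal carrier Smad3, its inhibitor Smad7, and the secreted matrix protein Tgfbi. They were taken by gene symbol from the deposited mouse table, and all 9 of 9 were found among its 41549 genes. The cells were islet cells of wild-type C57BL/6NRj mice of both sexes, aged 12 to 14 weeks, which were dispersed and transfected with 50 pmol of an antisense oligonucleotide (ASO). The ASO was either a control (Ctr) or one (αGlu) that blocks 5'tRF-Glu(CTC), a fragment from the 5′ end of a glutamate tRNA. All cells were then kept for 48 h in medium with either the carrier albumin alone (BSA) or 0.5 mM of the saturated fatty acid palmitate bound to it (PA). Each ASO was thus combined with each medium, which gave 4 groups of 6 libraries, with 3 libraries of every group in each of the batches the labels call batch 1 and batch 2. The cells came from whole islets and were not sorted, so a level is a mean over every cell type in the dish.

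TGF-β is secreted in a latent form held by matrix proteins. Once released, it binds the type II receptor Tgfbr2, which activates the type I receptor Tgfbr1, and this phosphorylates Smad2 and Smad3, which enter the nucleus with Smad4. Smad7 is a feedback inhibitor that is itself induced by the pathway, and matrix and cytoskeletal genes of fibroblasts and stellate cells are classical targets. Activin A, a dimer of Inhba subunits, signals through its own receptors to the same Smad2 and Smad3 and is made in islets.

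PA lowered 3 of the 4 ligand genes as well as Smad7, and Tgfbr1 did not pass the test. In Ctr-transfected cells, Tgfb2, Tgfb3, Inhba, Tgfbr2 and Smad7 fell, with log2 fold changes from -0.82 to -1.44. In αGlu-transfected cells, Tgfb2, Tgfb3, Inhba and Smad7 fell, from -0.79 to -1.65. No gene of the 9 rose in either, and none passed the test between the ASOs. Of all genes tested, 14.5% were called lowered by PA in Ctr cells and 14.2% in αGlu cells. The calls of Inhba and Tgfbr2 in Ctr cells were lost when certain single libraries were left out, as given below.

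The libraries held 18214719 to 35001979 counts, with a median of 26701201.5. Library S1 (Ctr BSA) was the shallowest and had the lowest scaling factor of the trimmed mean of M values (TMM), 0.853, against 0.939 to 1.06 in the others. All 9 genes passed the filter on low counts, which left 15916 genes for the test. Values below are TMM-scaled CPM, which is counts relative to library size, and a gene was called at an adjusted p below 0.05 in edgeR's quasi-likelihood test over all 15916 genes. The target of the αGlu ASO is a tRNA fragment, so the mRNA table gave no direct check of it. Beta cell marker genes summed to between 82756 and 149826 CPM in every library, as the label of islet cells asks for.

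The promoters of Tgfb2 and Inhba, both of which fell with PA under either ASO, and of Tgfbr1, which did not pass the test, are shown for comparison. Each runs from 250 bases before to 50 bases after the start of transcription, as RefSeq gives it on GRCm38.p6, 5′ to 3′ on the strand of the gene. The entries are chr1:186705940-186706239 on the minus strand for Tgfb2, chr13:16011601-16011900 on the plus strand for Inhba and chr4:47352972-47353271 on the plus strand for Tgfbr1. Capitals mark matches on either strand to a Smad box (CAGAC, a core to which Smads can bind), to a TATA box (TATAAA) and to an Sp1 box (CCGCCC, a core to which Sp1 can bind).
Tgfb2: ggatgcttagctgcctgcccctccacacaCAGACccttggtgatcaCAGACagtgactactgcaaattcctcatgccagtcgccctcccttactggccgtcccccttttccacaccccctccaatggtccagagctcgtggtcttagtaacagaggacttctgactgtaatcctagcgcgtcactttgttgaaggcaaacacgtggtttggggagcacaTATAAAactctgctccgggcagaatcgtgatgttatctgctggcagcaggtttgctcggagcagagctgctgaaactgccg
Inhba: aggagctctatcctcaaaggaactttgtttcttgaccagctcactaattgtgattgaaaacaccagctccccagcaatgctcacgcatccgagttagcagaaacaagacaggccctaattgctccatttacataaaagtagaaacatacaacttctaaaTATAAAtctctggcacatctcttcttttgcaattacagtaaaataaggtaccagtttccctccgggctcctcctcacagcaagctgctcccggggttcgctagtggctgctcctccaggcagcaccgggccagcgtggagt
Tgfbr1: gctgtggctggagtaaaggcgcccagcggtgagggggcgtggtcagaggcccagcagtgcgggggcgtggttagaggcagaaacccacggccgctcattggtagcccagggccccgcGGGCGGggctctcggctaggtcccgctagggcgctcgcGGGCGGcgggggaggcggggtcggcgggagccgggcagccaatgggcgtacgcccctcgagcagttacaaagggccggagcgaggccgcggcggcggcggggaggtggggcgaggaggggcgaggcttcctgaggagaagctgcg

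The Tgfb2 promoter held 2 Smad boxes and a TATA box that starts at position -31. The Inhba promoter held a TATA box that starts at position -91 and neither of the other motifs. The Tgfbr1 promoter printed, the first of 2 entries for this gene, held 2 Sp1 boxes, both on the opposite strand, and neither of the other motifs. The second Tgfbr1 entry, chr4:47385966-47386265 on the plus strand, held 1 Smad box that starts at position -203 and neither a TATA box nor an Sp1 box. GC content was 54.3% in the Tgfb2 window, 47.7% in the Inhba window and 74.7% in the Tgfbr1 window printed. Among all 32851 RefSeq promoters of this length, 49.59% held a Smad box, 13.62% a TATA box and 35.66% an Sp1 box. Of the other genes, Tgfbr2 held a Smad box, Tgfb1 and Smad3 held Sp1 boxes, and Tgfbi held both motifs. None of these held a TATA box. The matches are letters in a window and not measured binding, and a link between motifs and the PA response was not tested. Promoters were found for 7 of the 9 genes. Tgfb3 had no entry, and Smad7 was not looked up because entries on chromosome 18, where it lies, were left out.

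Compared per length, in the deposited TPM, which is transcripts relative to library size, Tgfbr1 was the most abundant of the 9, with a mean of 29.2 over the 24 libraries. It stood above Tgfb2 (8.37 TPM) in 24 of 24 libraries. Next in the order of mean TPM came Tgfb3 with 8.19, Smad7 with 7.67, Smad3 with 6.58, Inhba with 5.22, Tgfbr2 with 3.55 and Tgfb1 with 3.49. From Tgfb2 down to Tgfb1 the neighbours in this order kept it in only 10 to 17 of 24 libraries, so their order was not separable from the spread. Tgfbi was last with 1.10 TPM, below Tgfb1 in 22 of 24 libraries. The mean RPKM put the 9 genes in the same order, but within a library RPKM and TPM differ only by a common factor. The shared order is thus no separate check. In Ctr BSA cells alone, Tgfb2 was at 12.4 TPM and in Ctr PA cells at 4.72 TPM, which moved it from the second to the fifth place.

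**Figure D1:**
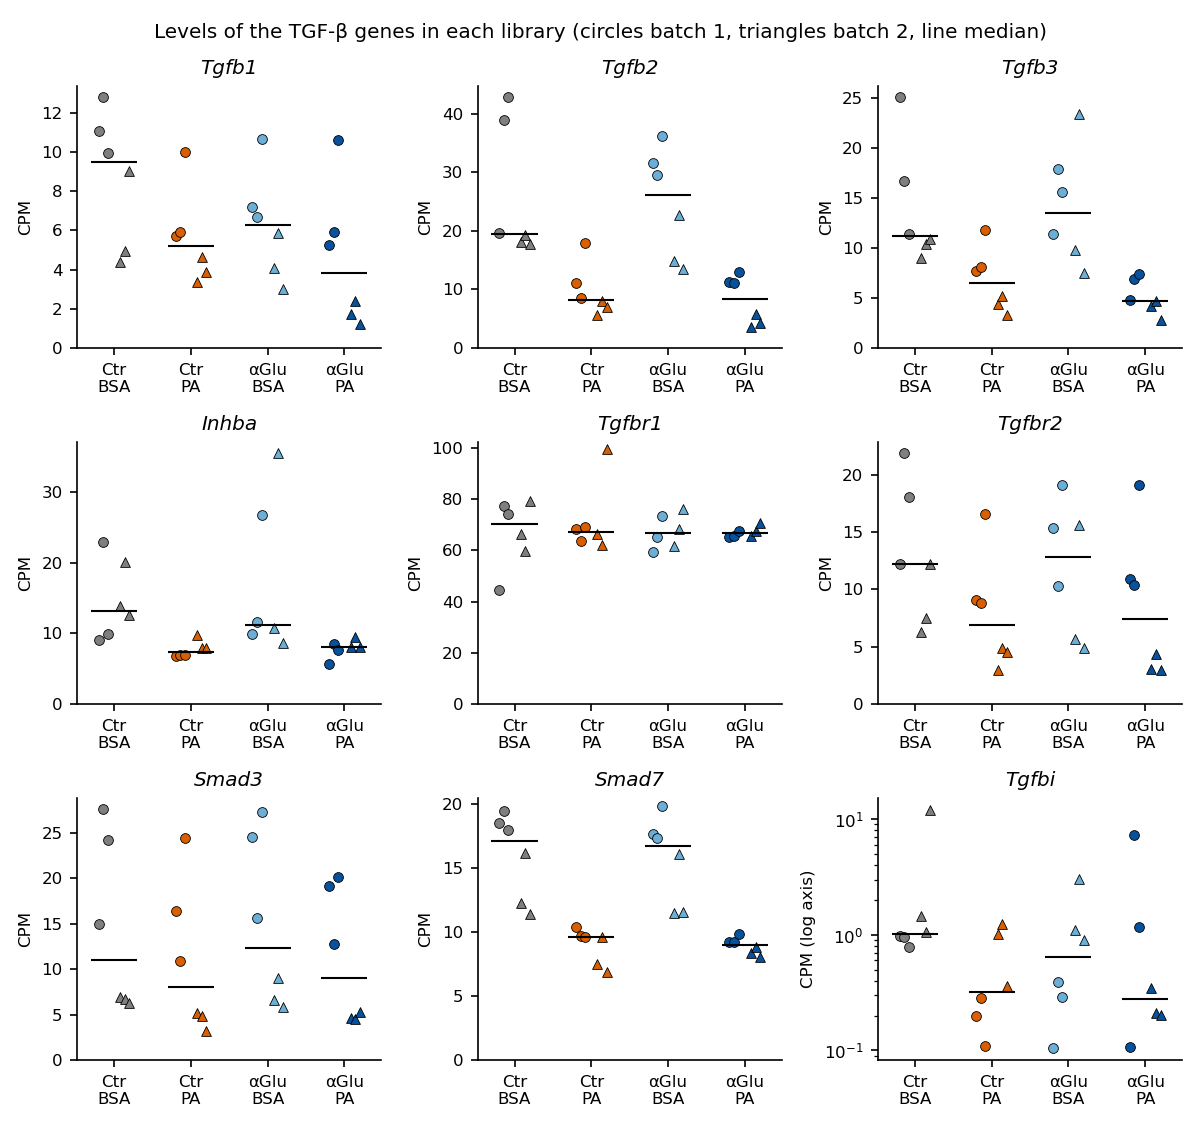
TMM-scaled CPM of the 9 TGF-β genes in each of the 24 libraries by group, with circles for batch 1, triangles for batch 2 and a line at the group median. The axes start at 0 except for Tgfbi, whose axis is logarithmic; Smad7 in PA (at most 10.4 CPM) lies below Smad7 in BSA (at least 11.4 CPM) under both ASOs.

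Tgfb2 encodes a TGF-β isoform made by mesenchymal and epithelial cells. In Ctr BSA cells its lowest, median and highest libraries had 17.7, 19.4 and 42.7 CPM, and in Ctr PA cells 5.57, 8.22 and 17.97 CPM. All 6 PA libraries lay below the BSA median, with 1 PA library, S7, just above the lowest BSA library. The log2 fold change was -1.44 (SE 0.184), with an adjusted p of 3.00e-06 in edgeR. In αGlu BSA cells the values were 13.5, 26.05 and 36.2 CPM, and in αGlu PA cells 3.59, 8.43 and 13.04 CPM, so here the groups did not overlap. This was a log2 fold change of -1.65 (SE 0.186), with an adjusted p of 5.73e-07. Within batches the fall was -1.45 in batch 1 and -1.43 in batch 2 for Ctr, and -1.47 and -1.89 for αGlu, and all 4 were called.

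Tgfb3, the third isoform, is a mesenchymal ligand. It had 8.96, 11.1 and 25.1 CPM in Ctr BSA cells as lowest, median and highest values, and 3.29, 6.47 and 11.8 CPM in Ctr PA cells. The highest PA library, S7, lay above the BSA median. Tgfb3 fell by 1.06 on the log2 scale (SE 0.246), with an adjusted p of 0.00200. With the αGlu ASO it went from 7.53, 13.5 and 23.3 CPM in BSA to 2.78, 4.71 and 7.41 CPM in PA, with no overlap of the groups. Here it fell by 1.54 (SE 0.250), with an adjusted p of 5.58e-05. The within-batch values were -0.95 and -1.23 for Ctr and -1.24 and -1.81 for αGlu. On the annotation used, exons of Tgfb3 overlap genes on the opposite strand, as do those of Tgfb2, and whether counting used the strand is not given in the sources used here.

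Tgfb1 is the isoform most used by immune cells, and it did not pass the test in either ASO. It had 4.38, 9.48 and 12.8 CPM in Ctr BSA cells and 3.35, 5.19 and 9.99 CPM in Ctr PA cells. The groups overlapped, with a log2 fold change of -0.64 (SE 0.251) and an adjusted p of 0.0565 in a fit that does not pair libraries of the same animal. In αGlu cells the values were 3.02, 6.27 and 10.7 CPM in BSA and 1.21, 3.83 and 10.6 CPM in PA. Their log2 fold change was -0.62 (SE 0.257), with an adjusted p of 0.0730. Leaving out library S8 (αGlu PA), the highest of its group, gave -0.91 with an adjusted p of 0.00565. By batch, the αGlu values were -0.19 in batch 1 and -1.26 in batch 2, the latter with an adjusted p of 0.0296.

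Inhba encodes the activin βA subunit. It had 9.08, 13.2 and 22.99 CPM in Ctr BSA cells and 6.85, 7.42 and 9.74 CPM in Ctr PA cells. Every PA library lay below the BSA median, and within each batch the groups did not overlap. Inhba fell by 0.95 on the log2 scale (SE 0.289), with an adjusted p of 0.0148. In αGlu cells it had 8.60, 11.2 and 35.6 CPM in BSA and 5.74, 8.14 and 9.55 CPM in PA, and fell by 1.11 (SE 0.287; adjusted p of 0.00504). In the BSA groups a few libraries lay above the rest: S5 (Ctr) with 22.99 CPM, and S6 and S18 (αGlu) with 26.8 and 35.6 CPM. Without S5 the Ctr value was -0.72 with an adjusted p of 0.0622, and without S18 the αGlu value was -0.77 with an adjusted p of 0.0297. With the batches fitted alone, the adjusted p ranged from 0.0843 to 0.195 and Inhba was called in neither.

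Of the receptors, Tgfbr2 was called lowered in Ctr cells only, and Tgfbr1 did not pass the test under either ASO. Tgfbr1 had 44.3, 70.3 and 79.3 CPM in Ctr BSA cells and 62.1, 67.3 and 99.5 CPM in Ctr PA cells. The groups overlapped throughout, and the log2 fold change was 0.09, with a 95% interval from -0.14 to 0.32 and an adjusted p of 0.574. In αGlu cells Tgfbr1 had 59.4, 66.7 and 76.3 CPM in BSA and 65.4, 66.6 and 70.6 CPM in PA. The log2 value was -0.0060, with an interval from -0.24 to 0.23. Tgfbr2 had 6.28, 12.2 and 21.9 CPM in Ctr BSA cells and 2.96, 6.85 and 16.6 CPM in Ctr PA cells. Its log2 fold change was -0.83 (SE 0.288), with an adjusted p of 0.0317. This call was lost when S3, S5, S11, S15 or S21 was left out, with the largest adjusted p, 0.0914, without S21. In αGlu cells Tgfbr2 had 4.85, 12.8 and 19.1 CPM in BSA and 2.98, 7.39 and 19.1 CPM in PA, a log2 fold change of -0.68 (SE 0.289) with an adjusted p of 0.0794. Without S2 or S8 that value passed, with adjusted p of 0.0389 and 0.0194. The Tgfbr2 values by batch were -0.62 and -1.08 in Ctr cells and -0.16 and -1.33 in αGlu cells.

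Smad3 carries the signal to the nucleus, and it did not pass the test. It had 6.26, 10.96 and 27.6 CPM in Ctr BSA cells and 3.19, 8.07 and 24.4 CPM in Ctr PA cells. The log2 fold change was -0.47 (SE 0.186), with an adjusted p of 0.0591. In αGlu cells it had 5.79, 12.3 and 27.3 CPM in BSA and 4.55, 9.03 and 20.1 CPM in PA, which was -0.47 (SE 0.186) on the log2 scale, at an adjusted p of 0.0615. Its groups overlapped, and its batches did not, as given below.

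Smad7, which blocks the type I receptor and is itself a Smad target, had the smallest standard error of the genes that fell. It had 11.4, 17.1 and 19.5 CPM in Ctr BSA cells and 6.87, 9.65 and 10.4 CPM in Ctr PA cells. In αGlu cells it had 11.5, 16.7 and 19.8 CPM in BSA and 8.06, 9.04 and 9.88 CPM in PA. The groups did not overlap in either ASO, and thus not within either batch. Smad7 had a log2 fold change of -0.82 (SE 0.102), with an adjusted p of 1.94e-06, in Ctr cells and -0.79 (SE 0.102), with an adjusted p of 3.03e-06, in αGlu cells. The PA mean was 0.561 of the BSA mean in Ctr cells and 0.570 in αGlu cells. Within batches the log2 values were -0.92 and -0.73 for Ctr and -0.96 and -0.63 for αGlu, all called. Tgfb2, Tgfb3 and Smad7 were called under both ASOs in all 24 fits that left out 1 library.

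Of the 9 genes, 5 were called lowered and 0 raised in Ctr cells, where 30% of all genes tested were called, 15.5% raised and 14.5% lowered. In αGlu cells 4 of 9 were lowered and 0 raised, where 28.5% of all genes were called, 14.4% raised and 14.2% lowered. By a second rule, the fold rule, which asked for a change beyond 1 on the log2 scale in either direction and an unadjusted p below 0.05, 3 of 9 passed in each, against 5.91% of all genes in Ctr cells and 5.57% in αGlu cells. The median log2 fold change of the 9 was -0.83 in Ctr cells and -0.68 in αGlu cells, beside 0.0074 and 0.0055 over all genes. The PA and BSA groups did not overlap for 1 of the 9 in Ctr cells and for 3 in αGlu cells, against 5.82% and 8.12% of all genes. The 9 genes were chosen with earlier results of these data known, so these counts are descriptions.

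**Figure D2:**
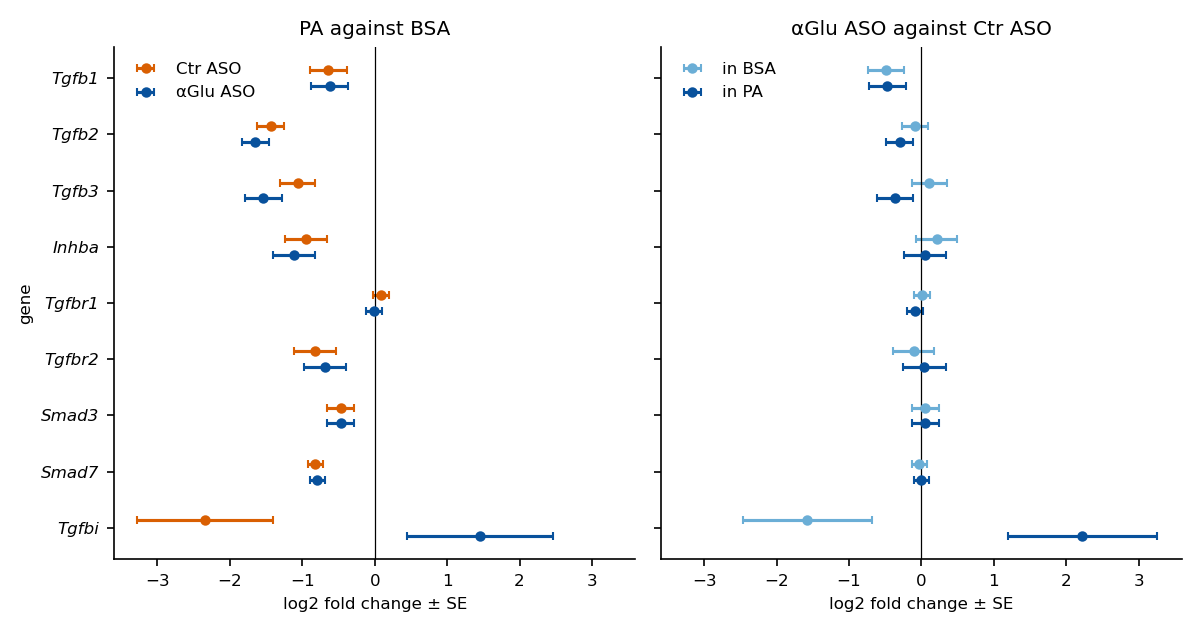
Log2 fold changes with their standard errors for the 9 TGF-β genes, for PA against BSA under each ASO (left) and for the αGlu against the Ctr ASO in either medium (right). Tgfb2 has the largest called fall (-1.44 and -1.65), Tgfbr1 lies at 0.09 and -0.0060, and in the right panel the points other than Tgfbi lie between -0.49 and 0.21.

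Marker genes of other cell types moved with PA too. Of the 9 tested fibroblast and stellate markers, 8 fell in Ctr cells and 6 in αGlu cells. Their summed level was 122 to 527 CPM in Ctr BSA libraries and 23.99 to 89.2 CPM in Ctr PA libraries, and 86.8 to 1136 CPM in αGlu BSA and 19.4 to 190 CPM in αGlu PA libraries. The highest sum of each BSA group was in S5 and in S18, which were also the highest libraries of Inhba in those groups. Of the 9 tested macrophage markers, 7 fell in Ctr cells and 1 in αGlu cells. The macrophage sum was 78.2 to 369 CPM in BSA and 84.6 to 128 CPM in PA with the Ctr ASO, and 90.7 to 174 CPM in BSA and 80.4 to 138 CPM in PA with the αGlu ASO. Of 7 acinar markers, 5 fell under each ASO, and of 8 endothelial markers edgeR called none under either ASO, with 1 and 3 at an unadjusted p below 0.05 and medians of -0.85 and -0.78. Of Schwann cell and glia markers 0 of 7 were called in both, with 0 at an unadjusted p below 0.05, of delta cell markers 1 of 3 lowered in both, and of alpha cell markers 1 of 6 lowered in Ctr cells and 0 of 6 in αGlu cells. Ductal markers gave 2 of 7 lowered in both and 1 raised in αGlu cells, and beta cell markers 2 of 8 raised in both, with 3 lowered in Ctr and 2 in αGlu cells. No marker gene was at 0 in all libraries of a group. The part of these cell types in the falls of the TGF-β genes was not tested, and in bulk RNA fewer cells of a type and less RNA per cell cannot be told apart.

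Tgfbi, a matrix protein induced by TGF-β and abundant in macrophages and fibroblasts, was the least abundant and least even of the 9, with 3 to 340 counts a library. In Ctr BSA cells its lowest, median and highest values were 0.785, 1.01 and 12.02 CPM, and in Ctr PA cells 0.109, 0.321 and 1.23 CPM. The highest value was library S21, and the next in its group had 1.46 CPM. The log2 fold change was -2.35 (SE 0.942), with an adjusted p of 0.0621, and without S21 it was -1.11 with an adjusted p of 0.395. In αGlu BSA cells Tgfbi had 0.105, 0.641 and 3.02 CPM, and in αGlu PA cells 0.108, 0.277 and 7.27 CPM. The 7.27 CPM came from library S4, and the next in its group had 1.16 CPM. The log2 fold change was 1.45 (SE 1.01) with an adjusted p of 0.299, and without S4 it was -0.74 with an adjusted p of 0.533. Without S4 and S21 together the values were -1.29 in Ctr and -0.88 in αGlu cells, both uncalled.

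In batch 2, where S4 is absent, Tgfbi in αGlu cells was 0.894 to 3.02 CPM in BSA and 0.202 to 0.344 CPM in PA. In batch 1 it was 0.105 to 0.388 CPM in BSA. Beside S4, the PA libraries of batch 1 had 0.108 CPM (S12) and 1.16 CPM (S8), so S8 lay above all BSA libraries of that batch. S21 also had the highest macrophage sum of all libraries, 369 CPM, and the highest Schwann cell and glia sum, 95.2 CPM. S18, with 3.02 CPM of Tgfbi, had the highest fibroblast and stellate sum, 1136 CPM. S4 had 96.1 CPM of macrophage markers and 85.9 CPM of fibroblast and stellate markers, sums inside the ranges of the other libraries. Of the macrophage sum in S4, C1qa alone gave 76.9 CPM. Single fibroblast and stellate markers went both ways in S4. Pdgfra was highest of all 24 libraries there, at 10.08 CPM against at most 9.29 CPM elsewhere. Dcn (3.91 CPM), Pdgfrb (5.01 CPM) and Rgs5 (6.56 CPM) were highest of the αGlu PA libraries there. Col1a1, Col1a2, Col3a1 and Lum were highest of that group in S8, Col6a3 in S16 and Cspg4 in S24. Col1a1 was at 7.57 CPM in S4 and 42.2 CPM in S8, and Col3a1 at 23.4 and 67.3 CPM. The part of these cells in the Tgfbi values was not tested.

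**Figure D3:**
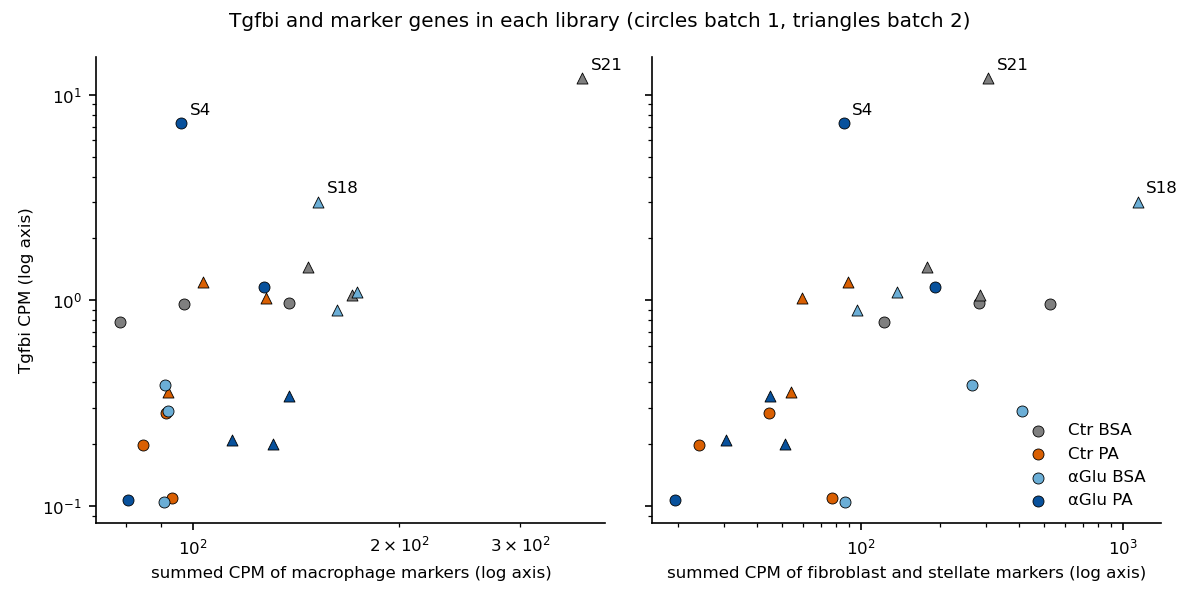
Tgfbi CPM in each library against the summed CPM of macrophage markers (left) and of fibroblast and stellate markers (right), all axes logarithmic, colours for groups, circles for batch 1 and triangles for batch 2. S21 (12.02 CPM) lies at the highest macrophage sum and S18 (3.02 CPM) at the highest fibroblast sum, while S4 (7.27 CPM) lies at neither of these sums. C1qa alone gave much of the macrophage sum in most libraries, with group means of 81.2 to 91.8 CPM, and 76.9 CPM in S4.

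The αGlu ASO was compared with the Ctr ASO in BSA and in PA to find whether blocking the tRNA fragment moved these genes. In edgeR, 0 of 9 were called in BSA and 0 at an unadjusted p below 0.05, and DESeq2 called 0 with 0 unadjusted. In PA, edgeR called 0, with 1 at an unadjusted p below 0.05 (Tgfbi), and DESeq2 gave 0 and 1. Over all genes edgeR called 0% in either, with 461 and 538 genes at an unadjusted p below 0.05, and DESeq2 called 8 and 30. By the fold rule 0.785% of all genes passed in BSA, with 0 of the 9, and 0.942% in PA, with 1 of the 9, Tgfbi. These comparisons share libraries with those of PA against BSA. All 7 Schwann cell and glia markers had lower estimates with αGlu in both media. Of them 0 of 7 were called, and 7 of 7 were at an unadjusted edgeR p below 0.05 in BSA and in PA. The paper names Ngfr, S100b, Foxd3 and Gfap among genes lowered by αGlu in PA in these data, so this count is no separate support. The summed level of the 7 markers in BSA was 8.04 to 95.2 CPM with Ctr and 6.17 to 25.7 CPM with αGlu. In PA it was 11.4 to 69.5 CPM against 5.29 to 10.6 CPM. Their median log2 differences were -2.57 and -3.43, and those of the 9 macrophage markers were -0.99 in BSA and 0.81 in PA, with 0 called and 4 and 2 at an unadjusted edgeR p below 0.05. The part of these cells in the values below was not tested.

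Smad7 lay close to 0 in both media. Its log2 difference was -0.03 in BSA, with a 95% interval from -0.23 to 0.18, and 0.0005 in PA, with an interval from -0.21 to 0.21. For Tgfb2 it was -0.09 (-0.45 to 0.27) in BSA and -0.30 (-0.69 to 0.09) in PA. For Tgfb3 it was 0.11 (-0.38 to 0.61) and -0.36 (-0.88 to 0.16), and for Inhba 0.21 (-0.37 to 0.79) and 0.05 (-0.55 to 0.65). Tgfb1 had the lowest values of the ligands, -0.49 (-1.01 to 0.03) in BSA and -0.47 (-0.998 to 0.06) in PA. Its 3 αGlu PA libraries of batch 2, at 1.21, 1.76 and 2.41 CPM, lay below the 3 Ctr PA libraries of that batch, at 3.35, 3.90 and 4.64 CPM, and in batch 1 the groups overlapped. Within a single batch, αGlu also lay wholly below Ctr for Tgfb3 in PA (batch 1) and for Tgfbi in BSA (batch 1) and PA (batch 2). The share of all genes with such a separation within a batch was not counted, so these separations are descriptions. The receptors were at 0.0071 and -0.09 (Tgfbr1) and at -0.10 and 0.04 (Tgfbr2), and Smad3 at 0.06 in both. The intervals given leave room for changes up to their bounds. The lack of a call with 6 libraries a group thus does not show that a gene stayed unchanged.

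Tgfbi had a log2 difference of -1.58 (SE 0.892) in BSA and of 2.22 (SE 1.03) in PA, the latter with an unadjusted edgeR p of 0.0404 and an adjusted p of 0.993. Without S4 the PA difference was 0.01, and without S21 the BSA difference was -0.30. The difference between the PA responses of αGlu and Ctr cells was called for 0 of 9 genes and for 0% of all genes in edgeR, with 1 of the 9 (Tgfbi) and 332 of all genes at an unadjusted p below 0.05, and DESeq2 called 0 of both. Tgfbi had 3.80 (SE 1.35) for this difference, which was 1.60 without S4 and 0.41 without S4 and S21. The macrophage markers were higher for this difference in 9 of 9, with a median of 2.19, 0 called and 5 at an unadjusted edgeR p below 0.05, and their part in the Tgfbi value was not tested. For the other 8 genes it lay between -0.47 (Tgfb3) and 0.15 (Tgfbr2), with standard errors of 0.144 to 0.406.

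Batch also set levels of these genes apart. In batch 2, 6 of 9 were lowered and 0 raised, where 51.5% of all genes were called, 26.1% raised and 25.4% lowered. Smad3 had 10.9, 19.6 and 27.6 CPM over the 12 libraries of batch 1 and 3.19, 5.55 and 9.01 CPM over the 12 of batch 2, with no overlap. The share of all genes with no overlap between batches was not counted. The log2 difference of Smad3 was -1.81 (SE 0.134), with an adjusted p of 7.02e-11. Tgfbr2 had medians of 13.8 and 4.87 CPM, Tgfb1 of 8.58 and 3.98 CPM, and Tgfb2 of 18.8 and 10.7 CPM. Their log2 differences were -1.29, -1.14 and -1.002, those of Tgfb3 and Smad7 were -0.67 and -0.37, and all 5 were called. Tgfbr1 (0.09), Inhba (0.21) and Tgfbi (1.18) did not pass, though Tgfbi was called without S4, at 1.70 with an adjusted p of 0.00935.

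Acinar markers were lower in batch 2 in 7 of 7, with a median log2 difference of -4.37, endothelial markers in 5 of 8 and ductal markers in 5 of 7. Beta cell markers were higher in 8 of 8. Of alpha cell markers 5 of 6 were lowered and 1 raised, of delta cell markers 1 of 3 was lowered, and of ductal markers 1 was raised. Schwann cell and glia markers were raised in 2 of 7, macrophage markers in 1 of 9, with a median of 0.94, and of fibroblast and stellate markers 0 of 9 were called, with a median of 0.06. What a batch was is not given in the labels, and the part of these cell types in the batch differences of the TGF-β genes was not tested. The PA response differed between batches for 0 of 9 genes, beside 0.0628% of all genes, which is 10 genes. At an unadjusted p below 0.05 in edgeR there were 2 of 9, Tgfbr2 with -0.82 and Tgfbi with -3.41, at adjusted p of 0.732 and 0.587, and DESeq2 called 0 with 1 unadjusted. The macrophage markers had a median of -1.72 for this difference between batches, with 0 of 9 called and 6 at an unadjusted edgeR p below 0.05, and their part was not tested.

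Beyond the 9, a list of 80 TGF-β pathway genes was counted, of which 76 were tested. In Ctr cells 42 fell and 2 rose, their median on the log2 scale being -0.59, and in αGlu cells 48 fell and 3 rose, with a median of -0.52, beside 0.0074 and 0.0055 over all genes. Of all genes tested, 14.5% were lowered and 15.5% raised in Ctr cells, and 14.2% and 14.4% in αGlu cells. Among the 24 transcriptional targets, 20 fell and none rose under each ASO, with medians of -1.98 and -2.12. Of the 12 genes that store or release latent TGF-β, 9 fell under each ASO. Of 11 other receptors 4 fell in Ctr and 7 in αGlu cells, of 15 inhibitors 6 and 9, and of 5 other Smads 0 and 1. The list of other ligands also holds Bmp1, which is a protease and not a ligand. Of its 9 tested genes, 3 fell and 1 (Inha) rose in Ctr cells, and 2 fell and 3 rose in αGlu cells. The target list shares Col1a1, Col1a2 and Col3a1 with the fibroblast and stellate markers, and the inhibitor list shares Dcn with them. Those markers had median log2 fold changes of -2.62 in Ctr cells and -2.14 in αGlu cells. The part of these cells in the falls of the target and pathway genes was not tested. The pathway list was chosen with earlier results of these data known, so its counts are descriptions and show no excess over all genes.

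The genes of smallest p among those that fell were Tagln, Tgm2 and Ccn2 in Ctr cells and Ccn2, Tagln and Acta2 in αGlu cells. Tagln, an actin-binding protein of smooth muscle and myofibroblasts, went from 159 ± 40.3 CPM (SD, n = 6) to 16.6 ± 7.40 CPM in Ctr cells and from 152 ± 38.8 to 17.2 ± 7.41 CPM in αGlu cells. Ccn2, a matricellular growth factor, went from 286 ± 83.2 to 65.9 ± 25.6 CPM and from 271 ± 64.96 to 51.2 ± 17.2 CPM. Tgm2, which crosslinks matrix proteins, had a log2 fold change of -1.90 in Ctr cells, and Acta2, smooth muscle actin, of -3.19 in αGlu cells. Those that rose did so less: Itgav, an integrin subunit that can free TGF-β, by 0.25 (SE 0.0760) and Inha, the inhibin α subunit that opposes activin, by 0.26 (SE 0.0962) in Ctr cells. In αGlu cells Inha rose by 0.43, Gdf11 by 1.04 and the stress-induced Gdf15 by 0.54 on the log2 scale. Between the ASOs, edgeR called 0 of 76 in BSA, in PA and for the difference between the PA responses, with 1 at an unadjusted p below 0.05 in each. In batch 2, where 25.4% of all genes were lowered and 26.1% raised, 33 fell and 5 rose, led by Cdkn1a (-0.72), Tgif1 (-1.83) and Smurf1 (-0.62), and by Inha (0.48), Nrros (0.80) and Itgav (0.28).

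**Figure D4:**
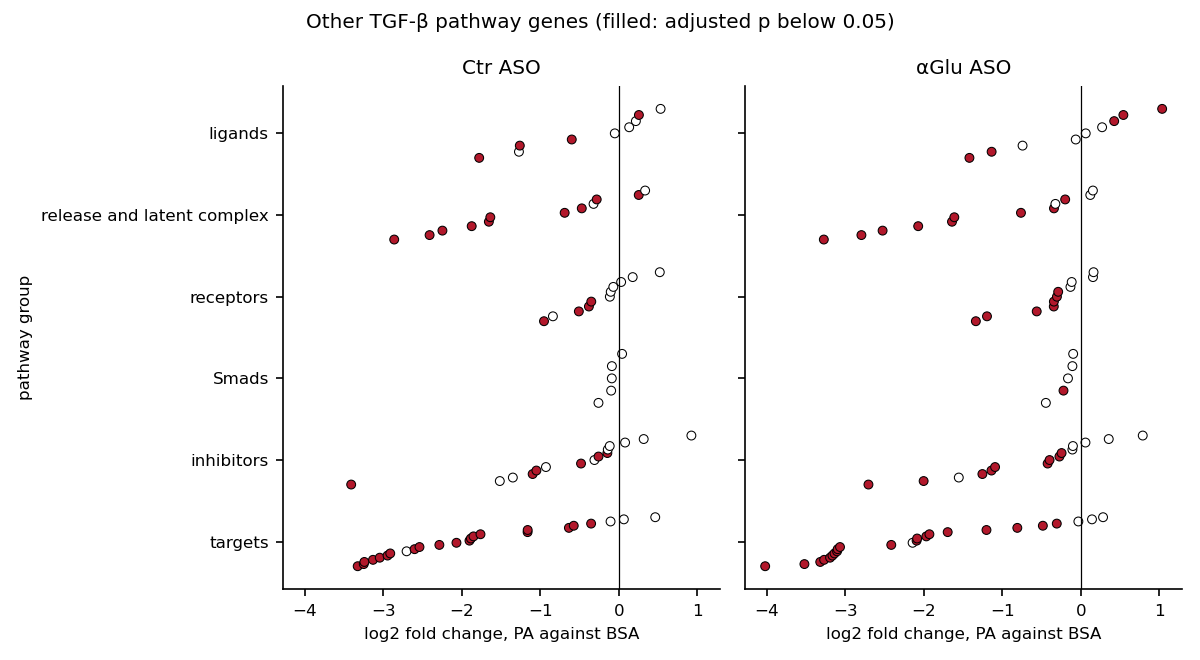
Log2 fold changes of PA against BSA for the 76 tested pathway genes other than the 9, by role, in Ctr cells (left) and αGlu cells (right), 1 point a gene, filled where the adjusted p was below 0.05. In both panels 20 of 24 targets and 9 of 12 genes of release and the latent complex are filled on the left of 0, against 0 of 5 Smads (left panel) and 1 of 5 (right panel). The ligand row includes the protease Bmp1. The list was chosen with earlier results of these data known.

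Across the 24 libraries, after the mean of each batch was subtracted, the 9 genes were described by the Pearson correlation of their log2 CPM. These points share libraries and the PA contrast, so the values are descriptions. The highest among the 36 pairs were 0.88 for Tgfb2 with Smad7, 0.85 for Tgfb3 with Smad7 and 0.83 for Tgfb1 with Tgfbr2. Tgfbr1 had values from -0.28 to 0.16 with the others. Among 15316 genes compared, those most like Smad7 were Csf1 (0.97), Itga3 (0.96) and Ltbp2 (0.96), the last a latent TGF-β binding protein. Those most like Tgfb2 were Cnn2, Wwc2 and Ddah1 (0.97 each). Those most like Tgfb3 were Serpinh1 (0.94), a collagen chaperone, Ilk and Ccdc80 (0.93 each), and most like Inhba were the matrix genes Vcan (0.89) and Col6a3 (0.88) and the collagen receptor subunit Itga11 (0.87). Those most like Tgfbr2 were Ctsc (0.93), Ctsh (0.91) and Cd81 (0.89), and most like Tgfb1 Mmp19, Parp3 (0.90 each) and Antxr2 (0.88). Smad3 was most like Jup, Osbpl3 (0.94 each) and Ezr (0.93). Tgfbr1 was most like Impad1 (0.95), Atl3 (0.94) and Actr2 (0.92), and Tgfbi like Clec7a (0.82), C1s1 (0.78) and Col6a1 (0.77).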

How the data were processed

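mRNA of 24 islet cell libraries was sequenced from stranded libraries. Annotation and normalisation were done by the authors in the QIAGEN RNA-seq Analysis Portal, on GRCm38 according to the submitters' processing notes. The deposited table held raw counts per gene together with TPM, RPKM and a scaled CPM signal, all made by the authors. Counts were used for every test and TPM for levels between genes. The order by RPKM was set beside that by TPM, and the CPM column was not used. 1 row without a gene name was left out. According to the methods, replicates were separate preparations and the groups of a replicate shared their animal. The labels do not tie libraries to animals, so no fit was paired.

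Counts were tested with edgeR 4.0.16 (R 4.3.3): filterByExpr (minimum count 10), TMM scaling, a quasi-likelihood fit over the 4 groups with a batch term, and Benjamini-Hochberg adjustment over 15916 genes. CPM is TMM-scaled, and log2 CPM used a prior count of 2. DESeq2 1.42.0, other scalings, filters, samples and call rules were alternatives, and the scripts were tested on simulated data. Depth per library was 18214719 to 35001979 counts. Members and lists were chosen with earlier results of these data known. Pathway genes were named as up to 3 raised and 3 lowered of smallest p per comparison, and for each member the 3 genes of highest correlation with a mean of at least 10 counts.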

Additional observations from a re-analysis of the deposited data

Results flagged for a closer look

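In each gene and group of 6, the highest and the lowest library were compared with the others by Dixon's ratio, and 4 of 36 gene-by-group sets held a library that stood apart. Chance alone gives about 1 in 20. Tgfbr1 was at 99.5 CPM in S23 of Ctr PA, where the next library had 69.04 CPM, and without S23 the PA change of Tgfbr1 in Ctr cells was -0.02 on the log2 scale. The other 3 were all Tgfbi: 12.02 CPM in S21 of Ctr BSA (next 1.46), 3.02 CPM in S18 of αGlu BSA (next 1.10) and 7.27 CPM in S4 of αGlu PA (next 1.16). The marker sums of S21, S18 and S4 are given with Tgfbi above, and the cause was not tested.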

How the results depend on the processing

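No paired analysis was possible because each library has a number of its own (S1 to S24) and the labels do not say which libraries came from 1 animal. The uncalled values of Tgfb1 and Smad3 thus come from unpaired fits, and how pairing would move them was not tested. For PA against BSA in Ctr cells, 5 genes were called, and 3 by the fold rule, 8 by DESeq2, 3 in batch 1 alone and 3 in batch 2 alone, with 3 (without S5) to 7 when 1 library was left out. DESeq2 added Tgfb1, Smad3 and Tgfbi, at adjusted p of 0.0340, 0.0346 and 0.0375. In αGlu cells, 4 genes were called, with 4 to 6 when 1 library was left out, and DESeq2 called 6. By the fold rule, 1 gene passed for αGlu against Ctr in PA, 1 for the difference between the PA responses of the ASOs and 1 for that of the batches, where the adjusted test gave 0, and no leave-one-out fit called any. The batch comparison gave 6 to 7 without 1 library. Pathway genes by the fold rule numbered 33 in αGlu cells, 1 for αGlu against Ctr in PA, 8 between batches and 3 for the PA response by batch. No called value changed sign in any alternative run. Of values of single genes, 9 lost and 12 gained the call outside the leave-one-out fits, and 6 and 19 within them. Tgfbr2 in Ctr cells also lost it without a batch term (adjusted p 0.310). Calls gained without 1 library were Tgfb1 (without S7, S8, S18, S19 or S24), Smad3 (S1, S2 or S7) and Tgfbi (S4) in Ctr cells, and Smad3 (S1, S2, S3, S7 or S23), Tgfb1 (S8 or S21) and Tgfbr2 (S2 or S8) in αGlu cells. Chosen after the data were seen, fits without S1 and S5 gave 4 and 5 genes and fits without S4 and S21 gave 4 and 4, in Ctr and αGlu cells.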
